A study of Mus musculus and Homo sapiens with 18 samples.

Results

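The splicing factor and RNA-binding protein families were taken as all genes whose symbols begin with Srsf and a digit, Hnrnp, Snrp, or Mbnl, Rbfox, Celf, Elavl or Ptbp and a digit, together with Tra2a, Tra2b, Esrp1, Esrp2, Nova1 and Nova2. Rows of pseudogenes and antisense transcripts were left out. The rule finds 68 genes among the 46882 of the lens table, 68 among the 54838 of the NLPC table and 74 among the 60880 of the HLE-B3 table. A gene with too few reads for a test keeps its place among the members, and 56, 67 and 61 members could be tested in the 3 systems.

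RNA-seq was performed on 18 libraries, 3 for each of 6 groups, to compare cells with and without the RNA-binding protein Qki. Lenses were taken at postnatal days 17 to 19 from Qk-iCKO mice (Nestin-CreERT2; QkL/L) and from Ctrl mice (Nestin-CreERT2; QkL/+). The Ctrl mice therefore also carry the Cre and 1 floxed allele, and both groups received tamoxifen from postnatal day 7. The Nestin promoter drives the Cre, so other Nestin-positive cells of the eye can lose Qk too. NLPCs, lens progenitor-like cells, were differentiated from neural stem cells of Nestin-CreERT2; QkL/L pups with Noggin and then bFGF, BMP4 and BMP7, and are labelled WT or Qk-/-, the latter after treatment with 100 nM 4-hydroxytamoxifen. For both NLPC groups, the brains that gave these stem cells were taken at postnatal day 1. HLE-B3 is a line of human lens epithelial cells, and the QKI KO cells are a puromycin-selected population that received the CRISPR-Cas9 system by lentivirus. Levels are given as CPM, read counts divided by the size of the library, with library sizes adjusted by the TMM method.

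Introns are removed by the spliceosome, whose small nuclear ribonucleoproteins (snRNPs) are built on a ring of Sm proteins. SR proteins mostly promote the use of nearby exons, while hnRNPs coat nascent transcripts and often repress exons. Mbnl, Celf, Rbfox, Ptbp, Nova, Elavl and Esrp proteins are regulators whose levels differ between tissues and that set tissue-specific exon choice. Qki itself is such a regulator, which binds the RNA element ACUAAC or ACUAAU, and many of these genes are known to control their own and each other's transcripts.

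The element is written ACTAAC or ACTAAT in DNA, and the annotated 3' UTR of a single transcript per gene was searched for either hexamer on the sense strand. At least 1 hexamer was found in 25 of the 66 mouse members with an annotated 3' UTR (37.9%), against 29.4% of 20598 mouse genes. In human, 26 of 71 members (36.6%) held one, against 31.6% of 19042 genes. Per kilobase of 3' UTR the density was 0.341 in mouse members and 0.362 in all mouse genes, and 0.355 in human members and 0.353 in all human genes. The families as a whole thus held the hexamers at about the density of other genes.

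Of the members that passed the test in more than 1 system, Hnrnpf, Hnrnpk, Mbnl1 and Mbnl2 have hexamers in both species, and these windows are shown because their changes are compared across the species below. The hexamer is in capitals, at the centre of 30 bases of the transcribed strand. The windows of Hnrnpf are the same at 30 of 30 bases, those of Hnrnpk (the first of the human gene) at 29 and those of Mbnl1 at 28. The second window of mouse Mbnl2 and the human one share 18 bases without gaps. The pairs not shown, the first window of mouse Mbnl2 and the second of human HNRNPK, matched at 11 and 14 bases. Each count includes the hexamer, whose bases the search itself fixed apart from the last.
Mouse Hnrnpf, chr6:117925466-117925495 (GRCm38, + strand): ttgagacacaatACTAATactgtaggaatt
Human HNRNPF, chr10:43881594-43881623 (GRCh37, - strand): ttgagacacaatACTAATactgtaggaatt
Mouse Hnrnpk, chr13:58392189-58392218 (GRCm38, - strand): gggcatgcaaaaACTAACattgaaattttg
Human HNRNPK, chr9:86584064-86584093 (GRCh37, - strand): gggcgtgcaaaaACTAACattgaaattttg
Mouse Mbnl1, chr3:60627089-60627118 (GRCm38, + strand): ttatttgctagtACTAATcaatcaaagggc
Human MBNL1, chr3:152180892-152180921 (GRCh37, + strand): atatttgctagtACTAATcagtcaaagggc
Mouse Mbnl2, chr14:120431427-120431456 (GRCm38, + strand): ggtagttagggaACTAACtccacttgcaca
Human MBNL2, chr13:98046105-98046134 (GRCh37, + strand): tgtagttaagagACTAACtctccacttgta
These matches describe the annotated sequence, and binding was not measured at them here.

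Each lens library held 10319320 to 16425331 counts. NLPC libraries were deeper, at 28154202 to 68243360 counts, and those of HLE-B3 held 69190864 to 81384471. Library 1 of the Qk-iCKO lenses and library 2 of the Qk-/- NLPCs stood apart, with the lowest mean correlation with the other libraries of their system (0.877 and 0.892). Of the lens fibre genes, Cryaa lay at 153140 to 163450 CPM in Ctrl lenses, whereas it did not exceed 0.614 CPM in any NLPC library and was at 0 in HLE-B3. Lim2 was at 0.071 CPM or less in the lens libraries. Summed over Ddx3y, Eif2s3y, Kdm5d and Uty, Y-linked reads numbered 3 or fewer in 4 lens libraries and 1051 and 930 in Qk-iCKO lenses 2 and 3. Every Ctrl lens was among the 4, so sex was not balanced between the lens groups. Its part in the lens changes, and in the differences between lens and NLPCs, was not tested. QKI fell in HLE-B3 from 257 to 263 CPM in WT cells to 100.2 to 105 CPM in QKI KO cells (log2 fold change -1.34, SE 0.054, adjusted p = 1.9e-11, edgeR). In the lens, Qk lay at 116 to 127 CPM in Ctrl and 86.7 to 106 CPM in Qk-iCKO lenses (log2 fold change -0.31, SE 0.14, adjusted p = 0.20). In the NLPCs its count was higher in the libraries labelled Qk-/-, at 3083 to 3593 CPM against 2440 to 2670 CPM (log2 fold change 0.41, SE 0.091, adjusted p = 0.027). Leaving out Qk-/- library 2 gave an adjusted p of 0.0026 for Qk in the NLPCs, and leaving out any other library gave one above the threshold, up to 0.17. Only exon 2 is flanked by loxP sites, so a count over the whole gene says little about the deletion in either mouse system. The direction of every NLPC change below is that of the labels, and protein was not analysed here. Treatment with 4-hydroxytamoxifen is listed for the Qk-/- NLPCs and not for the WT NLPCs. Drug and deletion therefore cannot be told apart in the NLPC changes.

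The families differ in level between the systems, and levels between genes are given per kilobase of merged exons. In Ctrl lenses the snRNP gene Snrpn led its family with 38.9 ± 1.42 CPM per kilobase (SD, n = 3), which includes any reads it shares with the overlapping Snurf. Celf1, which binds GU-rich RNA and controls both splicing and mRNA decay, reached 27.1 ± 1.69 CPM per kilobase. It was followed by Hnrnpk (24.7 ± 1.598), a KH-domain hnRNP, and Srsf2 (21.0 ± 1.15), a classical SR protein, on the same scale. The ranges of Celf1 and Hnrnpk within 1 SD overlap. In WT NLPCs the hnRNP, SR and snRNP families were led by Hnrnpa1 (124 ± 4.15 CPM per kilobase), Srsf5 (94.9 ± 1.83) and Snrpf (60.5 ± 4.62). HNRNPC (158 ± 4.02 CPM per kilobase), SNRPC (73.9 ± 4.53) and SRSF3 (67.5 ± 4.70) led their families in WT HLE-B3, where the ranges of the last 2 within 1 SD overlap.

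Among the tissue-specific regulators, Celf1 and Elavl1, the ubiquitous mRNA-stabilizing Elavl protein, led their families in all 3 systems, while the leading Ptbp, Rbfox and Mbnl gene was not the same throughout. Ptbp1, the general repressor of the Ptbp family, led in Ctrl lenses (7.04 ± 0.692 CPM per kilobase) and WT HLE-B3 (51.7 ± 4.47). Ptbp2, which is best known from developing neurons, had the highest mean in WT NLPCs (21.4 ± 0.508). Ptbp1 reached 20.1 ± 1.74 there, and the ranges of Ptbp1 and Ptbp2 within 1 SD overlap. Nova1, a neuronal KH-domain splicing factor, reached 13.98 ± 0.460 CPM per kilobase in WT NLPCs and 0.15 ± 0.026 in Ctrl lenses. Mbnl2 led its family in both mouse systems and MBNL1 in HLE-B3. Rbfox1 led in Ctrl lenses (1.35 ± 0.153 CPM per kilobase) and Rbfox2 in WT NLPCs (7.996 ± 0.325) and WT HLE-B3 (14.5 ± 0.133). The epithelial regulators Esrp1 and Esrp2 were close to 0 in every system, with at most 0.239 CPM per kilobase among control groups, in WT HLE-B3. These tables were counted and scaled separately, so levels set side by side across systems are descriptions.

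**Figure D1:**
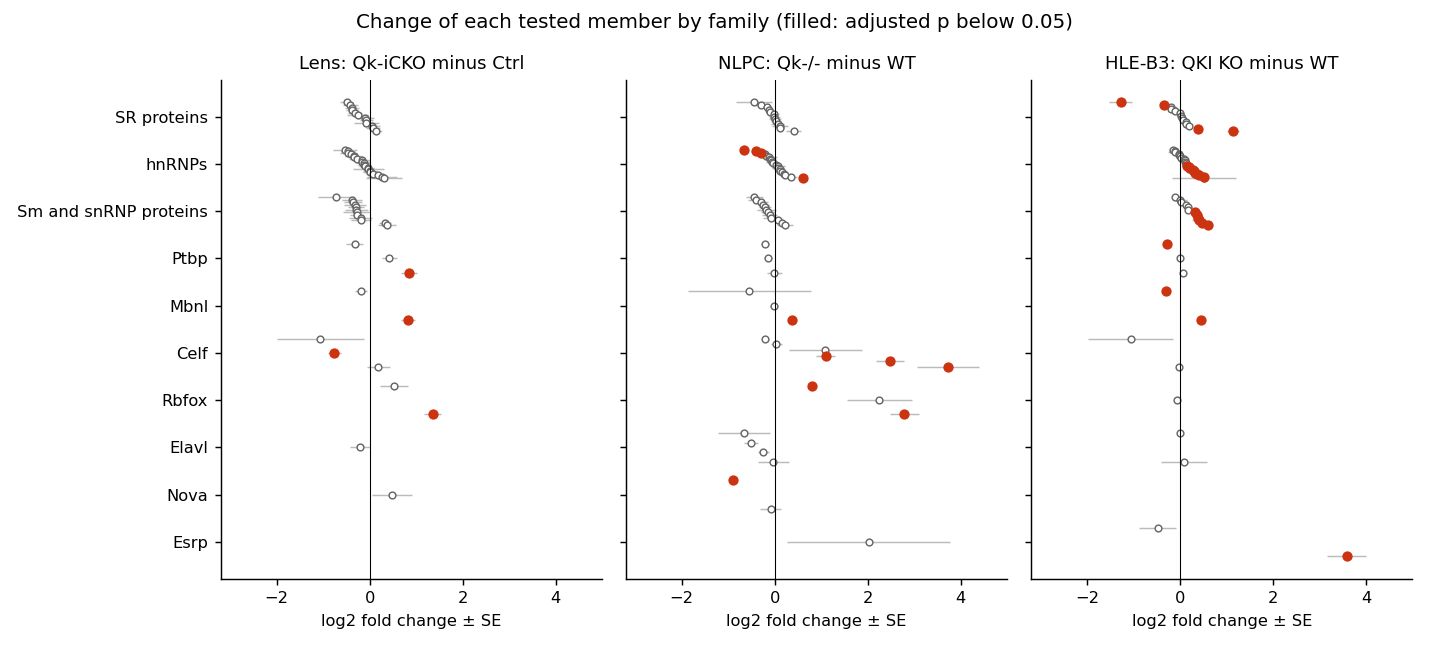
Log2 fold changes of the tested members after deletion of Qk or QKI, with their standard errors, by family (rows) and system (panels). Filled red points passed an adjusted p of 0.05 and open points did not. MBNL3, whose QKI KO libraries held no read, is left out of the right panel. In the lens and NLPC panels the filled points lie in the Rbfox, Celf, Mbnl, Ptbp, Nova and hnRNP rows, and in HLE-B3 the snRNP and hnRNP rows hold filled points to the right of 0 and none to the left.

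In the lens, the general splicing machinery showed no change that passed the test, and 4 members of the tissue-specific families did. Rbfox2 rose 2.56-fold, Ptbp3 1.80-fold and Mbnl2 1.78-fold in Qk-iCKO lenses, while Celf1, the most abundant of these regulators per kilobase, fell 1.69-fold. None of the 12 tested snRNP genes, 12 tested SR genes or 20 hnRNP genes passed in edgeR or DESeq2, with 1, 4 and 4 of them at an unadjusted p under 0.05. Over all members 3 of 56 rose (5.36%) and 1 fell (1.79%), against 8.38% and 3.88% of all 12201 genes tested. The called share of members, 7.14%, lay below the 12.3% of all genes. The groups did not overlap for 22 of the 56 members, against 35.3% of all genes.

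Rbfox2, which binds UGCAUG and controls exons in muscle, brain and epithelium (chr15:77078990-77307004, GRCm38), was measured at 6.70, 6.19 and 5.69 CPM in Ctrl lenses 1 to 3 and at 18.6, 12.3 and 16.5 CPM in Qk-iCKO lenses 1 to 3. The groups are well apart, with the lowest Qk-iCKO lens far above the highest Ctrl lens. The log2 fold change was 1.35 (SE 0.19, adjusted p = 0.0054, edgeR), and Rbfox2 still passed when any 1 of the 6 lenses was left out. Ptbp3, a paralog of the splicing repressor Ptbp1 (chr4:59471868-59549364), lay at 14.6, 13.3 and 15.5 CPM in Ctrl and at 31.4, 21.7 and 24.7 CPM in Qk-iCKO lenses. Lens 1 of the Qk-iCKO group was the highest, and the groups did not overlap (log2 fold change 0.85, SE 0.17, adjusted p = 0.021).

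Mbnl2, a muscleblind protein that binds motifs such as UGCU (chr14:120275669-120431697), was found at 28.0, 28.4 and 25.6 CPM in Ctrl and at 51.6, 41.4 and 52.9 CPM in Qk-iCKO lenses, without overlap (log2 fold change 0.83, SE 0.15, adjusted p = 0.012). Its paralog Mbnl1 did not pass, at 18.7 ± 1.17 CPM in Ctrl and 16.5 CPM in Qk-iCKO lenses (log2 fold change -0.18, adjusted p = 0.42). Celf1 (chr2:90940382-91019497) lay at 215, 228 and 243 CPM in Ctrl and 133, 129.6 and 142 CPM in Qk-iCKO lenses. All 3 Qk-iCKO lenses were thus below all 3 Ctrl lenses, with a log2 fold change of -0.76 (SE 0.14, adjusted p = 0.014). Mbnl2, Ptbp3 and Celf1 lost the threshold when any 1 of the 3 Ctrl lenses was left out (adjusted p between 0.059 and 0.095), with log2 fold changes that kept their sign, and they passed without any 1 Qk-iCKO lens. Scaling to total counts alone, which moved the median of all genes from 0.0064 to 0.29, left Rbfox2 and Mbnl2 past the threshold, with Ptbp3 at 1.18 (adjusted p = 0.073) and Celf1 at -0.47 (adjusted p = 0.21).

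Most members lay on the lower side in the lens. Of the 56 tested, called ones included, 38 were below 0, and the median log2 fold change was -0.17, against 0.0064 for all genes tested. With total counts alone the median of members was 0.11 and that of all genes 0.29, so that the distance between them stayed near the same while the signs changed. The lowest values within the large families were those of the snRNP gene Snrpf (-0.72), Hnrnph3 (-0.53) and Srsf7 (-0.49), with adjusted p of 0.27, 0.22 and 0.063. At an unadjusted p under 0.05, 5 members were higher and 9 lower. Among the untested members were Celf4, Celf5, Celf6, Elavl2, Elavl3, Elavl4, Esrp1, Esrp2, Mbnl3, Nova2, Rbfox3 and Srsf12, none of which exceeded a group mean of 1.09 CPM.

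Marker genes of other cell types differed between the lens groups as well. Ptprc, C1qa, Tyrobp, Cd68 and Csf1r, all 5 tested of the 6 listed, rose with log2 fold changes from 4.78 to 6.24, and the summed level of the 6 was 1.24 to 2.95 CPM in Ctrl and 74.0 to 109 CPM in Qk-iCKO lenses. Aif1 was at 0 in the Ctrl lenses. Nes (log2 fold change 2.19, adjusted p = 0.0087) and the epithelial gene Krt19 (1.78, adjusted p = 0.020) rose too. So did the neuronal gene Gap43 (4.29, adjusted p = 0.0022), and each was the 1 called gene of its list. Of the other tested neuronal genes, Snap25 (-1.40), Syt1 (-0.76) and Map2 (-0.43) were below 0 and Tubb3 (0.25) above, none of them called. The neuronal list summed to 18.4 to 42.2 CPM in Ctrl and 19.2 to 27.4 CPM in Qk-iCKO lenses. Of 7 tested lens fibre genes Mip fell (-1.69, adjusted p = 0.026), and the fibre list summed to 202510 to 222840 CPM in Ctrl and 112300 to 182340 CPM in Qk-iCKO lenses. Their part in the changes of Rbfox2, Ptbp3, Mbnl2 and Celf1 was not tested. In bulk RNA, fewer cells of a type and less RNA per cell cannot be told apart.

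In the NLPCs the changes again included Rbfox, Celf and Mbnl genes. Celf4, Celf5 and Celf6, the members of the Celf family best known from the brain, rose 5.58-, 2.14- and 13.2-fold, and Rbfox1 and Rbfox2 rose 6.89- and 1.74-fold in the libraries labelled Qk-/-. Hnrnpll and Mbnl1 also rose. Nova1 fell 1.88-fold, followed by Hnrnpf, Hnrnpab and Hnrnpk. Of 67 tested members 7 rose (10.4%) and 4 fell (5.97%), against 4.74% and 5.96% of 20371 genes. In all 16.4% of members passed, and 10.7% of all genes. The groups did not overlap for 33 members, against 35.2% of all genes. None of the 13 SR genes, 12 snRNP genes, 4 Elavl genes or 3 Ptbp genes passed in edgeR, with 2, 2, 1 and 1 of them at an unadjusted p under 0.05, and of these Elavl1 passed as lower in DESeq2 and in edgeR with the replicate number as a block (adjusted p = 0.033).

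Celf6 was nearly absent from WT cells, at 0.073, 0.661 and 0.305 CPM, and reached 3.99, 5.05 and 4.34 CPM in Qk-/- cells. Every Qk-/- library lay above every WT library (log2 fold change 3.72, SE 0.67, adjusted p = 0.012). Celf4 went from 1.84, 3.37 and 1.79 CPM to 11.7, 16.1 and 11.05 CPM, with library 2 the highest of both groups (log2 fold change 2.48, SE 0.30, adjusted p = 0.0020). Celf5 was measured at 5.45, 3.99 and 4.29 CPM in WT and 10.8, 7.71 and 10.8 CPM in Qk-/- cells, again without overlap (log2 fold change 1.09, SE 0.21, adjusted p = 0.015). The ubiquitous Celf1 was lower in all Qk-/- libraries, but its log2 fold change of -0.20 did not pass (adjusted p = 0.12). Summed over the family, Celf genes lay at 204 to 210.4 CPM in WT and 204 to 212 CPM in Qk-/- cells, since Celf1 and Celf2 hold most of the reads.

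Rbfox1, the family member of neurons and muscle (chr16:5885355-7411526), lay at 1.09, 0.731 and 0.596 CPM in WT and at 5.64, 6.04 and 5.09 CPM in Qk-/- cells. The difference is several times the spread within either group (log2 fold change 2.78, SE 0.31, adjusted p = 0.0015). Rbfox2 went from 67.6, 65.3 and 62.4 CPM to 118, 106 and 116 CPM (log2 fold change 0.80, SE 0.087, adjusted p = 0.0013). Rbfox3, known as the neuronal marker NeuN, had a log2 fold change of 2.25 that did not pass (adjusted p = 0.083) and that passed with the replicate number as a block.

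Nova1 (chr12:46694517-46818929) was measured at 127, 119 and 121 CPM in WT and 66.7, 63.0 and 65.9 CPM in Qk-/- cells. The replicates of each group lay close together and far from the other group (log2 fold change -0.91, SE 0.080, adjusted p = 0.00060). Hnrnpf, a qRRM protein that binds G-rich RNA (chr6:117900324-117925622), fell from 69.4, 70.6 and 73.8 CPM to 45.2, 46.7 and 44.1 CPM (log2 fold change -0.65, SE 0.084, adjusted p = 0.0029). Hnrnpll, a regulator of CD45 exons in lymphocytes (chr17:80029487-80062334), rose from 107, 97.9 and 101 CPM to 156, 163 and 146 CPM (log2 fold change 0.61, SE 0.084, adjusted p = 0.0039). None of these 3 genes had overlapping groups.

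Smaller changes were seen for Mbnl1, Hnrnpab and Hnrnpk. Mbnl1 rose from 162 ± 4.24 to 209.9 CPM (log2 fold change 0.37, adjusted p = 0.020), Hnrnpab fell from 275 ± 33.1 to 206 CPM (-0.41, adjusted p = 0.038) and Hnrnpk fell from 408 ± 10.9 to 334 CPM (-0.29, adjusted p = 0.043; SD of WT, n = 3). With the replicate number as a block, Hnrnpk no longer passed (adjusted p = 0.069). Of the 50-base words of Hnrnpf and Hnrnpk, 49.0% and 34.5% also occur in other annotated genes, which makes their counts less certain than those of Nova1 or Rbfox2, where no word is shared.

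Single libraries decided some of these calls. Celf4, Rbfox1, Rbfox2, Hnrnpll, Nova1 and Hnrnpf passed whichever library was left out, and Celf6 passed except without WT library 3 (adjusted p = 0.086). Celf5 and Hnrnpab passed without WT library 1 or Qk-/- library 2 and otherwise reached adjusted p of up to 0.11 and 0.16. Mbnl1 and Hnrnpk passed only without Qk-/- library 2, with adjusted p of up to 0.14 and 0.19 when another library was left out. Without Qk-/- library 2, 18% of all genes passed, and 7 members rose and 8 fell, the latter including Elavl1, Elavl4, Hnrnpc and Ptbp2.

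Other cell type genes moved with the labels in the NLPCs. Of 8 neuronal genes tested, Snap25, Dcx and Map2 rose and none fell, with a summed level of 1258 to 1330 CPM in WT and 1550 to 1690.3 CPM in Qk-/- cells, and Tubb3 was not higher (log2 fold change -0.88, adjusted p = 0.081). Of the 6 astrocyte and neural stem genes, Slc1a3, Gfap and Sox2 fell and Aqp4 rose, and the sum went from 4900 to 5406 CPM to 3187 to 3650.1 CPM. The 5 epithelial genes were at 0.430 CPM or less in sum, except for 6.003 CPM in Qk-/- library 2, which was also the shallowest. Their part in the changes of the Celf, Rbfox and Nova genes was not tested.

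**Figure D2:**
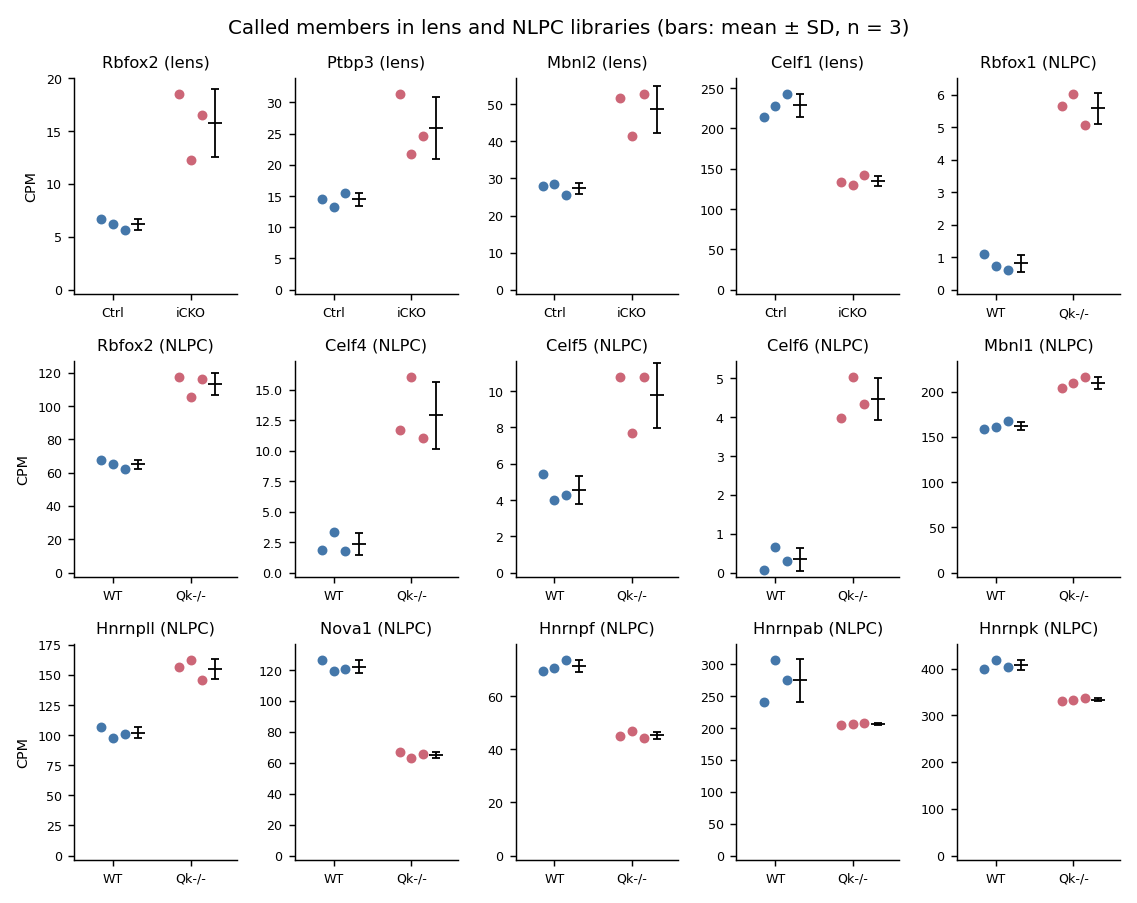
CPM of each member past an adjusted p of 0.05 in the lens (first 4 panels) and NLPCs (other panels), with 1 point per library, controls in blue and deletion libraries in red, and the mean ± SD (n = 3) in black. In each panel the 2 groups do not overlap, as for Rbfox2 in the lens, where Ctrl lenses reached at most 6.70 CPM and Qk-iCKO lenses at least 12.3 CPM.

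In HLE-B3, 6 of 12 snRNP genes and 8 of 22 tested hnRNP genes rose in QKI KO cells and none of either family fell. Of the SR genes SRSF1 and SRSF8 rose and SRSF4 and SRSF12 fell. All 3 MBNL genes passed, MBNL1 upward and MBNL2 and MBNL3 downward. In addition ESRP1 rose from near 0 and PTBP2 fell. These 18 rises are 29.5% of the 61 tested members and the 5 falls 8.20%, against 17% and 16.3% of 19049 genes. Over both directions 37.7% of members and 33.3% of all genes passed, so that members stood close to the background in number, with more of them on the higher side. The groups did not overlap for 25 members, against 44.6% of all genes.

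The changes of the core snRNP genes were small and in 1 direction. SNRPD2, a component of the Sm ring (chr19:46190718-46195827, GRCh37), was measured at 55.8, 59.2 and 48.4 CPM in WT cells and at 81.8, 74.8 and 89.8 CPM in QKI KO cells. The lowest KO library exceeded the highest WT library (log2 fold change 0.59, SE 0.082, adjusted p = 2.8e-05). SNRPF, another Sm protein (chr12:96252730-96297606), went from 144, 119.8 and 131 CPM to 175, 183 and 188 CPM (log2 fold change 0.47, SE 0.067, adjusted p = 3.7e-05). SNRPD3, SNRPE and SNRPG of the ring and SNRPC of the U1 snRNP rose with log2 fold changes of 0.37, 0.40, 0.38 and 0.33. SNRPB, SNRPA, SNRPA1, SNRPB2, SNRPN and SNRPD1 did not pass, and lay between -0.11 (SNRPD1) and 0.18 (SNRPA1). In sum the 12 genes gave 946 to 1066 CPM in WT and 1132 to 1229 CPM in KO cells.

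The hnRNP genes that rose were HNRNPH3, HNRNPDL, HNRNPUL1, HNRNPA1, HNRNPF, HNRNPAB, HNRNPA2B1 and HNRNPK, with log2 fold changes from 0.14 (HNRNPK) to 0.51 (HNRNPH3). HNRNPH3 (chr10:70090931-70102950) lay at 205, 168 and 165 CPM in WT and 235, 235 and 297 CPM in KO cells, where library 3 was the highest of all 6 (SE 0.092, adjusted p = 0.00036). HNRNPA1 rose from 618 ± 74.1 to 778 CPM (log2 fold change 0.33, SE 0.075, adjusted p = 0.0025), and 32.7% of its 50-base words occur in other genes as well. HNRNPK and HNRNPA2B1, at the low end (0.14 and 0.20), had adjusted p of 0.032 and 0.0197, and the groups overlapped for HNRNPA2B1, as they did for SNRPE. Abundant members such as HNRNPC, HNRNPU and HNRNPH1 did not pass (log2 fold changes -0.024, -0.0044 and 0.13).

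Among SR genes, SRSF8, a member derived from a retrocopy of SRSF2 (chr11:94800083-94804388), went from 6.18, 5.23 and 5.38 CPM to 14.01, 11.5 and 11.7 CPM in QKI KO cells. This 2.21-fold rise left a wide gap between the groups (log2 fold change 1.15, SE 0.13, adjusted p = 3.4e-06). SRSF12, an SR protein that can antagonize other SR proteins (chr6:89805678-89827790), fell from 2.35, 3.07 and 3.05 CPM to 1.25, 1.19 and 1.05 CPM (log2 fold change -1.28, SE 0.25, adjusted p = 0.00065). SRSF4 fell from 159 ± 9.64 to 125 CPM (log2 fold change -0.35, adjusted p = 0.00021). SRSF1, the founding member of the family, rose from 60.3 ± 6.88 to 78.9 CPM (0.39, adjusted p = 0.00085), and 65.1% of its words occur in other genes. The other 10 SR genes, SRSF3 and TRA2B with the highest totals among them, lay between -0.20 (SRSF10) and 0.19 (SRSF9).

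The muscleblind genes moved apart. MBNL1 (chr3:151961617-152183569) rose from 358, 350.4 and 349.8 CPM to 486, 472 and 482 CPM (log2 fold change 0.44, SE 0.049, adjusted p = 2.3e-06). MBNL2 (chr13:97873688-98046374) fell from 121 ± 8.15 to 99.1 CPM (log2 fold change -0.29, SE 0.064, adjusted p = 0.0020). The 3' UTR of MBNL3 (chrX:131503348-131623996) spans 10346 bases and holds 9 of the hexamers, 0.87 per kilobase against 0.353 in all human genes. Their part in the change of MBNL3 was not tested. MBNL3 had 33, 23 and 12 reads in WT libraries, which is 0.404, 0.315 and 0.167 CPM. No read was counted in the 3 KO libraries, so that its level was at least 7.07-fold lower when 3 reads are set as the limit in each KO library (adjusted p = 0.0012).

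ESRP1, which drives epithelial exon choice, was at 0.269, 0.1096 and 0.111 CPM in WT and 2.17, 1.88 and 1.98 CPM in QKI KO cells. The WT libraries held 22, 8 and 8 reads and the KO libraries 159, 130 and 145, a 12.04-fold rise at a low level (log2 fold change 3.59, SE 0.42, adjusted p = 4.6e-06). ESRP2 did not pass (log2 fold change -0.48, adjusted p = 0.40). Of the epithelial genes, KRT8 and KRT18 rose as well (log2 fold changes 1.26 and 0.89), while CDH1 did not pass, EPCAM was at 0.139 CPM or less and KRT19 was at 0 in all 6 libraries. These 5 genes summed to 432 to 463 CPM in WT and 788 to 885 CPM in KO cells, and their part in the change of ESRP1 was not tested. PTBP2 fell from 52.4 ± 4.51 to 43.3 CPM (log2 fold change -0.27, adjusted p = 0.010). All 4 tested neuronal genes of 8 listed fell as well, namely TUBB3 (-1.22), MAP2 (-1.48), SYT1 (-0.78) and SNAP25 (-0.77), with the list at 34.1 to 37.9 CPM in WT and 17.1 to 21.3 CPM in KO cells. Of the astrocyte and neural stem genes NES (-1.25) and SLC1A3 (-0.61) fell. Their part in the change of PTBP2 was not tested. PTBP1, PTBP3, CELF1, ELAVL1 and RBFOX2 lay between -0.055 and 0.075 and did not pass.

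Genes around a member can change with it. For 19 of the 23 called members the median log2 fold change of the 50 nearest tested genes lay between -0.13 and 0.11. The median was 0.65 around SRSF8, 0.37 around HNRNPDL, 0.21 around SNRPD2 and -0.45 around MBNL2. HNRNPDL itself rose by 0.41 and MBNL2 fell by 0.29 on the log2 scale, so that neither changed by more than 0.16 away from its neighbourhood. The part of the neighbourhood in these changes was not tested.

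In HLE-B3 19 of the 23 calls held whichever library was left out. HNRNPK passed only without WT library 1 and otherwise reached adjusted p of up to 0.091. SNRPE passed without WT library 1, KO library 2 or KO library 3 (up to 0.16 without the others), HNRNPA2B1 without WT library 1, KO library 1 or KO library 2 (up to 0.11) and PTBP2 without WT library 2, KO library 1 or KO library 2 (up to 0.095). Without WT library 1, 26 members rose. The 13 untested genes were CELF2, CELF3, CELF4, CELF6, ELAVL3, ELAVL4, NOVA1, NOVA2, RBFOX1, RBFOX3, HNRNPCL2, HNRNPCL4 and the read-through gene HNRNPUL2-BSCL2, the last 3 of them at 0. With total counts alone 15 members rose and 8 fell.

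**Figure D3:**
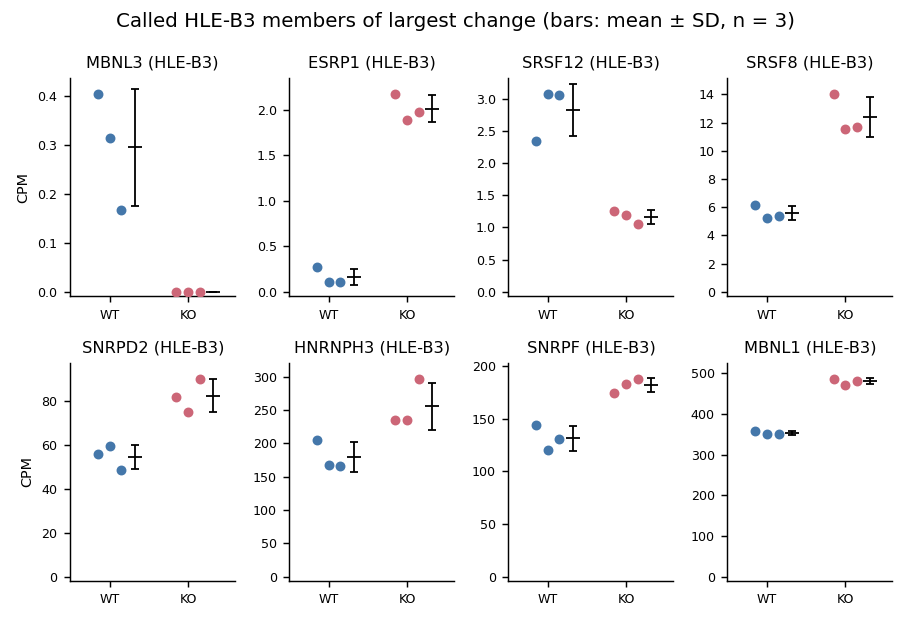
CPM in each WT (blue) and QKI KO (red) library of HLE-B3 for the 8 called members with the largest log2 fold changes, with the mean ± SD (n = 3) in black. MBNL3 was at 0 in all 3 KO libraries and ESRP1 did not exceed 2.17 CPM, whereas MBNL1 lay between 472 and 486 CPM in KO cells.

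Across the 3 systems, 32 genes passed in at least 1, 6 in 2 and 0 in all 3. Rbfox2 rose in lens and NLPCs, and Mbnl1 rose in NLPCs and HLE-B3. The other 4 passed in opposite directions. Hnrnpf, Hnrnpab and Hnrnpk fell in the NLPCs (log2 fold changes -0.65, -0.41 and -0.29) and rose in HLE-B3 (0.30, 0.28 and 0.14), and Mbnl2 rose in the lens (0.83) and fell in HLE-B3 (-0.29). Of 6 fits with 1 library left out, Hnrnpk passed in 1 in the NLPCs and in 1 in HLE-B3. Hnrnpab passed in 2 of 6 in the NLPCs. The fall of MBNL2 in HLE-B3 was smaller than the median fall around it. A difference between the HLE-B3 and mouse changes was not tested, as the tables hold different species. Of the members tested in both, 29 of 56 had the same sign in lens and NLPCs, 28 of 57 in NLPCs and HLE-B3, and 19 of 52 in lens and HLE-B3. The share over all genes was not computed, so these counts show nothing particular to the families. Of the tested members, 38 of 56 were below 0 in the lens and 40 of 61 above 0 in HLE-B3, again without the share over all genes. These signs depend on the scaling. With total counts alone, 32 of 56 were above 0 in the lens and 34 of 61 in HLE-B3.

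**Figure D4:**
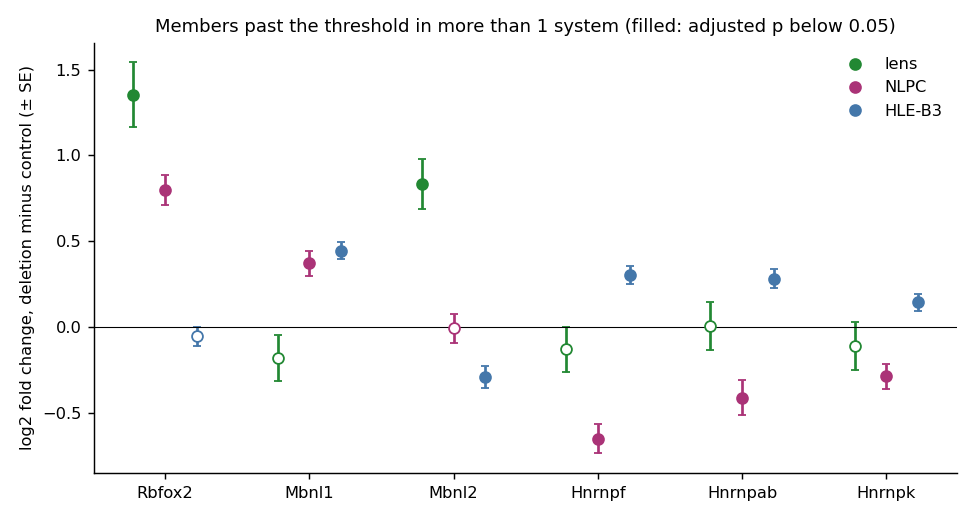
Log2 fold changes with standard errors of the 6 members that passed in 2 of the 3 systems, with lens in green, NLPC in purple and HLE-B3 in blue. Filled symbols passed an adjusted p of 0.05. Rbfox2 lies at 1.35 in lens and 0.80 in NLPCs, and Hnrnpf, Hnrnpab and Hnrnpk lie below 0 in NLPCs and above 0 in HLE-B3.

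The difference between the changes in lens and NLPC was tested directly by fitting both mouse systems together over their common genes. It passed for 8 of 66 members, against 8.54% of 16675 genes, with 5 higher and 3 lower in the NLPCs where the shares of all genes were 3.21% and 5.33%, and for 5 members with the replicate number as a block within each system. With scaling to total counts alone only Rbfox1 passed. Rbfox1 differed most, with a change that was 2.35 higher in the NLPCs (log2 scale, SE 0.42, adjusted p = 0.0050). It lay at 5.93 ± 0.671 CPM in Ctrl and 8.61 CPM in Qk-iCKO lenses, which did not pass there (log2 fold change 0.53, adjusted p = 0.31). Mbnl1 (0.65), Celf1 (0.65), Hnrnph1 (0.68) and Hnrnpa1 (0.56) also had higher changes in the NLPCs, and Mbnl2 (-0.74), Ptbp3 (-0.89) and Nova1 (-1.33) lower ones, with adjusted p between 0.020 and 0.048. Hnrnph1, Hnrnpa1 and Nova1 did not pass with the block (adjusted p of 0.063, 0.073 and 0.075). The difference for Nova1 was -0.70 without Qk-iCKO lens 1 (adjusted p = 0.25), and it passed in 2 of 12 fits with 1 library left out. Srsf7 (0.61) and Hnrnpu (0.71), which come next, had adjusted p of 0.056 and 0.058. The difference for Rbfox2, which rose in both, was not among the 8. With any 1 library left out, 2 to 8 members passed, the fewest without WT NLPC library 1 or 3 or Qk-/- NLPC library 1, and Rbfox1 passed each time.

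Splicing genes outside the families were followed in 2 lists. Their counts stand against the called shares of all genes, which were 12.3% (lens), 10.7% (NLPC) and 33.3% (HLE-B3). Of 50 genes of the core spliceosome, 0 of 49 tested passed in the lens by edgeR (3 at an unadjusted p under 0.05, and 1 called by DESeq2), 1 of 50 rose and 5 fell in the NLPCs, and 18 rose and 5 fell among 49 in HLE-B3. In the NLPCs Lsm6, of the ring on U6 snRNA, fell (log2 fold change -0.67, adjusted p = 0.0024), as did Prpf4 (-0.43), Lsm8 (-0.51) and Snrnp27 (-0.58), and Zrsr2 of the minor spliceosome rose (0.42, adjusted p = 0.021). In HLE-B3 the genes with the smallest adjusted p were U2AF2 (0.46), which recognizes the polypyrimidine tract, DHX15 (0.39), PRPF6 (0.43), RBM8A (0.48) and SNRNP48 (0.49). The whole list summed to between 7162 and 7374 CPM in WT and between 7529 and 7773 CPM in KO cells.

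Of 47 other regulators, 46 could be tested in each system. In the lens Srpk3, a kinase of SR proteins in muscle, rose (log2 fold change 1.97, adjusted p = 0.011) and Rbm5 (-0.52) and Pcbp4 (-0.49) fell. In the NLPCs Rbm20, a repressor of titin exons, rose (1.19, adjusted p = 0.0013) together with Pcbp3 (0.90), and Fubp3 (-0.67) and Rbm24 (-0.70) fell. In HLE-B3 10 rose and 13 fell, where 17% of all genes were higher and 16.3% lower, with RBM24 (0.85, adjusted p = 3.2e-08), SRPK2 (0.37) and SYNCRIP (0.40) higher and KHSRP (-0.33) and SRRM2 (-0.64) lower. Rbm24, a muscle and lens splicing regulator, thus passed in both, downward in the NLPCs and upward in HLE-B3. Rbm20 also passed in both, upward in the NLPCs and downward in HLE-B3, where it did not exceed 0.474 CPM (-2.48, adjusted p = 0.024).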

How the data were processed

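The authors isolated total RNA, prepared stranded libraries, aligned reads with STAR 2.6.1b to mm10 or hg19 and counted them per gene with HTSeq 0.11.0; the processing notes also name HISAT2 2.0.4 and featureCounts without a role. The deposited values are raw counts, 1 table per system, with no normalization. Here each table was filtered (edgeR's filterByExpr, counts of 10 and 15), scaled by TMM and tested in edgeR 4.0.16 (R 4.3.3, glmQLFTest, no covariates), with Benjamini-Hochberg adjustment over all genes tested and a threshold of 0.05. The smallest two-sided p of an exact permutation of 3 against 3 libraries is 0.1. The study states that its animal and cell experiments used independent biological replicates, without saying how the cell libraries were made, and p-values measure the spread between these libraries. DESeq2 1.42.0, other scalings, no filter, a replicate block and each library left out were alternatives. Same-numbered libraries tended to deviate together (correlations of 0.23, 0.13 and 0.52 in lens and 0.12, 0.32 and 0.15 in NLPCs, all over 0.1). Ctrl lens 2 and WT NLPC library 1 correlated more with a deletion library of another number (0.28 and 0.23). A pairing by number was therefore not established, and the main fits used no block.

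Members and gene lists were chosen with earlier results of these data known. Named are the called members, the family members with the highest control level per kilobase, members called in at least 2 systems, 10 members of the joint fit, and up to 5 called genes of each other list and system. Levels per kilobase use merged exons of GRCm38 or GRCh37. Log2 fold changes are deletion minus control. The steps were tested on simulated data.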

Additional observations from a re-analysis of the deposited data

Results flagged for a closer look

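For 8 members the change differed between lens and NLPC in the joint fit (NLPC minus lens, log2 scale, edgeR adjusted p under 0.05): Rbfox1 at 2.35, Mbnl1 at 0.65, Mbnl2 at -0.74, Ptbp3 at -0.89, Celf1 at 0.65, Hnrnph1 at 0.68, Nova1 at -1.33 and Hnrnpa1 at 0.56. The value for Nova1 was -0.70 without Qk-iCKO lens 1 (adjusted p = 0.25). Of these, Rbfox1 alone also passed with scaling to total counts alone, where the median of all lens genes moves. The 6 myeloid genes summed to 1.24 to 2.95 CPM in Ctrl and 74.0 to 109 CPM in Qk-iCKO lenses and to 4.22 to 10.7 CPM in the NLPC libraries, and their part in these differences was not tested.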

How the results depend on the processing

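With scaling to total counts alone, 0 lens members fell, 2 NLPC members fell and 8 HLE-B3 members fell, and 1 member differed between lens and NLPC. That difference passed for 5 members with every gene of at least 1 count, 5 with the replicate block and 14 in DESeq2. With each library left out in turn, 1 to 4 members rose and 0 to 1 fell in the lens, 4 to 7 rose and 2 to 8 fell in the NLPCs, 15 to 26 rose and 4 to 6 fell in HLE-B3, and 2 to 8 differed. RLE size factors moved none of these counts by over 1.5 times. The block moved no other count by over 1.5 times, and of the called members of lens and NLPC only Hnrnpk lost its call. In HLE-B3 the numbers do not pair the libraries (correlations of 0.061, 0.057 and -0.050); with the block 19 members rose and 5 fell, and HNRNPK did not pass (adjusted p = 0.077). Only uncalled values changed sign. With total counts alone, Mbnl1, Hnrnpf and Hnrnpk in the lens came to 0.12, 0.14 and 0.16 and Mbnl2 in the NLPCs to 0.039. Hnrnpab in the lens came to -0.00021 with RLE factors, -0.016 with every gene, -0.021 in DESeq2, -0.069 without Ctrl lens 2 and -0.071 without Qk-iCKO lens 3 (up to 0.077 without another library). Mbnl2 in the NLPCs came to 0.010 with RLE factors, 0.012 without WT library 1 and 0.024 without Qk-/- library 3 (down to -0.053 without another library). The cause was not tested. Members under about 1 CPM in the lens could not be tested at this depth.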
